A study of Mus musculus with 6 samples.

Results

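The CD3 chains, the coreceptors CD4 and CD8, and the T cell surface molecules Thy1, CD2 and CD5 were examined in the kidneys of MRL and LPR mice. Their genes are Cd3d, Cd3g, Cd3e, Cd247, Cd4, Cd8a, Cd8b1, Thy1, Cd2 and Cd5, which are 10 of the 36870 gene names on the array. All probes that carry one of these names and are not controls were taken, which gave 19 of 56605 probes, with 9 for the CD3 chains, 6 for the coreceptors and 4 for Thy1, Cd2 and Cd5. Transcriptome analysis (TA) compared 3 female MRL/MpJ mice, called MRL mice, with 3 female MRL/MpJ-Fas lpr/lpr mice, called LPR mice, all at 6 months of age. Both groups share the MRL background, so the contrast is the lpr allele of Fas and the disease that develops with it, not a lupus strain against a healthy strain of another background. RNA came from the whole kidney of each mouse, was labelled with Cy3 and was hybridized to 1 array per mouse without pooling. The study's methods name Trizol for the RNA isolation and the sample labels name an RNeasy kit.

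The T cell receptor itself cannot signal. It sits with CD3γε and CD3δε pairs and a pair of zeta chains (Cd247), whose cytoplasmic tails carry tyrosine motifs (ITAMs) that the kinase Lck phosphorylates and ZAP-70 then binds. CD4 and CD8 bind MHC class II and class I molecules, respectively, and bring Lck to the receptor. In mice that lack functional Fas, T cells that carry the receptor but neither CD4 nor CD8 accumulate in lymphoid organs. These double-negative T cells are the reason for setting the CD3 chains against Cd4 and Cd8 in one tissue.

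The probes are 60 bases long and are placed on mm9 (NCBI build 37). Those shown here lie in coding sequence, and each has an open reading frame along its whole length. The first 2 cover the ITAM of the CD3δ chain and one ITAM of the zeta chain. Capitals mark the codon runs that encode a tyrosine, any 2 residues, and a leucine or isoleucine, which are separated by 7 codons in both genes. Both probes cross an intron, spanning 232 and 1019 bases of the genome. The other 2 probes lie in the extracellular parts of CD4 and CD8α and carry no marked letters. These 4 are shown because they measure the coding transcript of chains and coreceptors that moved very differently.
Cd3d A_51_P285206 (chr9:44794171-44794402, + strand): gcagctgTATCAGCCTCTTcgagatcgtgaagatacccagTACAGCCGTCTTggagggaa
Cd247 A_52_P173555 (chr1:167786567-167787585, + strand): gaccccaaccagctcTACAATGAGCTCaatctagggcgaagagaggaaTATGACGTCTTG
Cd4 A_52_P383089 (chr6:124817706-124817765, - strand): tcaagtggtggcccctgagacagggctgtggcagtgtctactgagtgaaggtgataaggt
Cd8a A_52_P150547 (chr6:71323885-71323944, + strand): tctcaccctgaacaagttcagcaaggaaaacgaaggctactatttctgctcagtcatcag

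The genes also differ in how they are arranged. Cd3g, Cd3d and Cd3e are neighbours on chromosome 9, and Cd8b1 and Cd8a are neighbours on chromosome 6, whereas Thy1 and Cd4 lie elsewhere on these chromosomes and Cd247, Cd2 and Cd5 on others. Promoter sequences from RefSeq (GRCm38.p6) were found for 6 of the 10 genes. The 250 bases before the annotated start are shown for Cd3d and Cd3g, which rose alike, and for Cd8a, which did not pass the test. Capitals mark E-boxes (CANNTG, which reads the same on both strands), the letters bound by basic helix-loop-helix factors.
Cd3d (chr9:44981536-44981785, + strand): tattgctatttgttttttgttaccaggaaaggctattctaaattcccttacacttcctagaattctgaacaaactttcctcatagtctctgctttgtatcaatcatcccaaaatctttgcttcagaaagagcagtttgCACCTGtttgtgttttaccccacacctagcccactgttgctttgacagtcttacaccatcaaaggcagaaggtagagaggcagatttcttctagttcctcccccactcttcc
Cd3g (chr9:44980432-44980681, - strand): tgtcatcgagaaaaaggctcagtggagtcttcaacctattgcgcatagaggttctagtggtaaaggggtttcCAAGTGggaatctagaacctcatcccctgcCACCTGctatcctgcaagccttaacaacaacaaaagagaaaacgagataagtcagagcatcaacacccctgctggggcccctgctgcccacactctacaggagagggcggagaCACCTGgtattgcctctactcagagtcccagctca
Cd8a (chr6:71373177-71373426, + strand): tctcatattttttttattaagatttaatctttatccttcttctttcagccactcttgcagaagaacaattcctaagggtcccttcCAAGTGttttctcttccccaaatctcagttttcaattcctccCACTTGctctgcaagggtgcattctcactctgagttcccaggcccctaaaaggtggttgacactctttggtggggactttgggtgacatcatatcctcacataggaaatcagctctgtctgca

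The Cd3d, Cd3g and Cd8a stretches held 1, 3 and 2 E-boxes, and 66.2% of 32851 mouse promoter stretches of this length held at least 1. The Ets core GGAAG, on either strand, occurred 2 times for Cd3d, 0 times for Cd3g and 2 times for Cd8a, and 64.1% of all stretches held it. The letters CTTTGA of the TCF/LEF motif occurred 2 times for Cd3d and in neither of the other two, and 13.8% of all stretches held them. The GATA letters AGATAA occurred 1 time for Cd3g and in neither of the other two (9.99% of all stretches), and the Runx letters TGTGGT in none of the 3 (14.0% of all stretches). Matches of different motifs were counted separately, whether or not they overlapped. A match describes letters and is not a site of binding.

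The 6 arrays lay on 1 slide and were scanned together, with 59305 spots that are not controls on each. The share of spots well above background was 69.6% to 70.6% in MRL mice and 70.7% to 73.5% in LPR mice. The 75th percentile of intensity was 706 to 759 on 5 arrays and 942 on the array of LPR 1. All values below are log2 intensities relative to the 75th percentile of the array, so a value shows where a probe stood on its own array and levels of different probes are not compared. A log2 change is LPR minus MRL, with its standard error (SE) from limma and a p-value adjusted by the Benjamini-Hochberg method over 39924 tested probes, called at 0.05. Over all tested probes, the log2 change had a median of -0.14. Fas, the gene that differs between the strains, gave -0.37, -0.28 and -0.06 in MRL mice and -0.49, -1.25 and -0.37 in LPR mice at its brighter probe, A_55_P2091676. Its log2 change of -0.47 (SE 0.24) did not pass in limma (adjusted p = 0.234), while at its other probe, A_52_P73385, no MRL mouse had a signal well above background and LPR mice were higher by at least 1.47-fold. The dimmer probe entered the test through LPR mice alone and supports nothing by its call. The brighter probe thus gives no clear check of the genotype. Kidney genes, such as Umod of the thick ascending limb, were well above background in every mouse.

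Of the 10 genes, LPR mice had higher signals for 8 and lower signals for 0, and Cd247 and Cd8a did not pass. A gene is represented by its brightest tested probe, and 7.12% of all 25805 genes tested were higher by the same rule. No member fell at an unadjusted p under 0.05 either. By probe, 14 of 18 tested were higher and 4 did not pass, against 6.53% of all tested probes, and 1 probe of Cd247 was too dim to be tested. Of the 15 probes above background on all 6 arrays, 11 were higher, and the other 3 calls were of dim Cd247 and Cd4 probes whose MRL signals lay mostly or wholly at background. In 14 of the 18 tested probes the 3 LPR mice all lay above the 3 MRL mice, which held for 11.0% of all tested probes and, by the brightest probe, 11.7% of genes. The median change of the 10 genes was 2.42 on the log2 scale. In RNA from a whole kidney, more cells of a type and more RNA per cell cannot be told apart. The limma p-values weigh the difference between the groups against the spread within the groups of 3 mice, with information on that spread shared across probes.

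**Figure D1:**
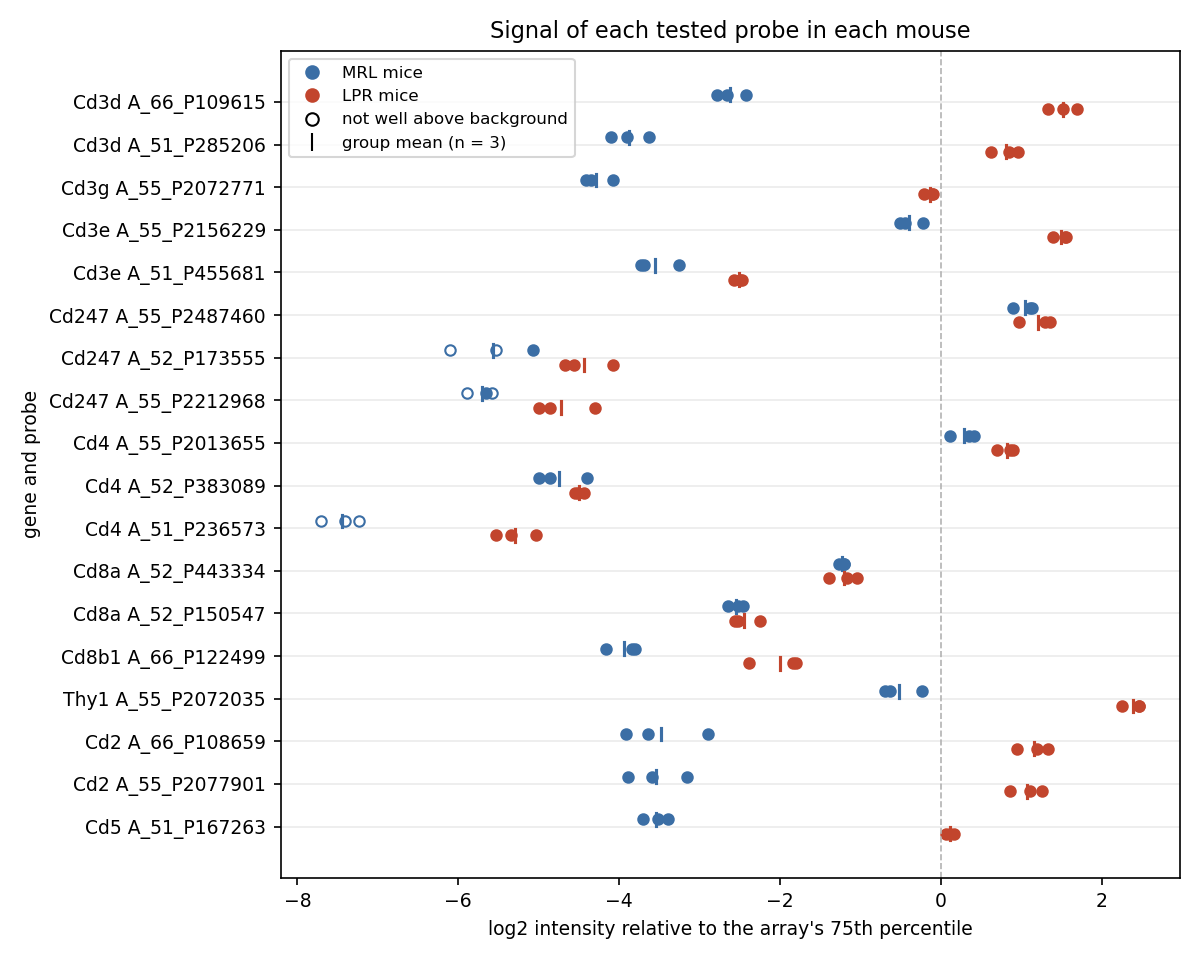
Log2 intensity relative to the array's 75th percentile (x axis) of the 18 tested probes of the 10 genes (y axis), with 1 point per mouse, a tick for the group mean, and open points for signals not well above background. The groups are far apart for Cd3d, Cd3g, Thy1, Cd2 and Cd5 and interleaved for both Cd8a probes, the coding Cd4 probe and the brightest Cd247 probe.

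Among the CD3 chains, Cd3d and Cd3g rose most, Cd3e rose less, and Cd247 depended on the probe. Cd3d encodes CD3δ, the partner of CD3ε in one of the signalling pairs. Its brighter probe, A_66_P109615 (chr9:44794452-44794511), gave -2.66, -2.43 and -2.78 in MRL mice and 1.33, 1.69 and 1.52 in LPR mice. The LPR mice stood well apart from the MRL mice, with little spread within either group. The rise was 4.14 (SE 0.14) on the log2 scale, or 17.6-fold (adjusted p = 1.3e-05 in limma), and 242 of 25805 genes rose by at least as much. The ITAM probe shown above, A_51_P285206, gave -3.90, -3.63 and -4.10 in MRL mice and 0.62, 0.96 and 0.85 in LPR mice. Both Cd3d probes thus separated the groups completely, and the ITAM probe rose 25.7-fold, by 4.69 (SE 0.16) on the log2 scale.

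Cd3g encodes CD3γ, the other partner of CD3ε, and starts close to Cd3d on the opposite strand. Its probe A_55_P2072771 (chr9:44777868-44777927) gave -4.08, -4.42 and -4.35 in MRL mice and -0.21, -0.09 and -0.11 in LPR mice. The groups did not overlap, and the 3 LPR mice were nearly equal. The change was 4.15 (SE 0.12), or 17.7-fold (adjusted p = 9.6e-06 in limma). The changes of Cd3g and Cd3d differed by 0.01 (SE 0.19), which is within the spread between mice. A different background correction (normexp) reduced the log2 change to 2.82 for Cd3g, 3.56 for the brighter Cd3d probe and 3.46 for its ITAM probe, and all 3 remained past the threshold.

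Cd3e encodes CD3ε, which is part of both pairs. At the brighter probe, A_55_P2156229 (chr9:44806828-44806887), it gave -0.45, -0.23 and -0.51 in MRL mice and 1.39, 1.54 and 1.55 in LPR mice. All LPR mice were above all MRL mice, but the MRL mice already stood near the 75th percentile of their arrays. The change was 1.89 (SE 0.12), or 3.71-fold (adjusted p = 0.00012 in limma). The dimmer probe, A_51_P455681 (chr9:44807254-44807313), gave -3.26, -3.69 and -3.72 in MRL mice and -2.47, -2.50 and -2.57 in LPR mice. Again the groups did not overlap, and the rise was 2.06-fold (adjusted p = 0.0052 in limma). It did not pass with the slide row as a block, a setting that compares LPR 1 alone with the MRL mice. Within each mouse, Cd3d minus Cd3e changed by 2.25 (SE 0.07), so neighbouring genes of one complex did not rise by the same amount at the probes used.

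Cd247 encodes the zeta chain, which holds most of the ITAMs of the complex. Its brightest probe, A_55_P2487460 (chr1:167791567-167791626), gave 1.11, 1.13 and 0.89 in MRL mice and 0.97, 1.29 and 1.36 in LPR mice. LPR 1 lay within the range of the MRL mice, and the change of 0.16 (SE 0.14) did not pass (adjusted p = 0.464 in limma). The ITAM probe, A_52_P173555, gave -5.53, -5.07 and -6.10 in MRL mice and -4.56, -4.67 and -4.08 in LPR mice. It did not overlap between groups and rose 2.19-fold (adjusted p = 0.0449 in limma), but it was well above background in only 1 of 3 MRL mice.

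Another Cd247 probe, A_55_P2212968 (chr1:167800324-167800383), was likewise above background in 1 of 3 MRL mice. It gave -5.58, -5.89 and -5.66 in MRL mice and -4.86, -5.00 and -4.31 in LPR mice, a rise of 1.98-fold (adjusted p = 0.0226 in limma). Both calls were weak, since the ITAM probe lost its call under 11 of 20 alternative settings and this probe under 9 of 20. The last probe, A_52_P198698 (chr1:167807278-167807337), was above background in no MRL mouse and in LPR 1 and LPR 3, and was not tested. The mean of the tested Cd247 probes rose by 0.76 on the log2 scale and passed (adjusted p = 0.031 in limma).

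The coreceptor genes changed less than Cd3d and Cd3g, and unequally. Cd4 encodes the coreceptor for MHC class II. Its brightest probe, A_55_P2013655 (chr6:124814711-124814770), gave 0.41, 0.35 and 0.11 in MRL mice and 0.70, 0.86 and 0.90 in LPR mice. The groups did not overlap, but the gap between MRL 1 and LPR 1 was small. The rise was 0.53 (SE 0.12), or 1.45-fold (adjusted p = 0.0356 in limma). Leaving out any 1 of the 6 mice ended this call, with changes of 0.44 to 0.59 and adjusted p of 0.0526 to 0.111 in limma. The mean of the 3 Cd4 probes, which includes the dimmest one with MRL signals at background, rose by 0.98 and passed (adjusted p = 0.00092 in limma).

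The coding probe of Cd4 shown above, A_52_P383089, gave -4.40, -4.99 and -4.86 in MRL mice and -4.44, -4.55 and -4.51 in LPR mice. MRL 1 was the highest of the 6 mice, and the change of 0.25 (SE 0.17) did not pass (adjusted p = 0.347 in limma). At the dimmest probe, A_51_P236573 (chr6:124815401-124815459), all 3 LPR mice and 0 of 3 MRL mice had a signal well above background. LPR mice were higher by at least 1.57-fold. The probe entered the test through LPR mice alone, so its call is no independent support, and normexp ended that call at a log2 change of 0.13. For this bound, an MRL signal below the dimmest well-measured probe of its array was raised to that probe's signal before the means were compared.

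CD8 is a pair of chains, and their genes behaved differently. Cd8a, which encodes the α chain, gave -1.26, -1.21 and -1.21 in MRL mice and -1.40, -1.17 and -1.04 in LPR mice at A_52_P443334 (chr6:71328911-71328970). The MRL mice lay inside the range of the LPR mice, and the change was 0.02 (SE 0.12, adjusted p = 0.912 in limma). The coding probe shown above, A_52_P150547, gave -2.64, -2.53 and -2.46 in MRL mice and -2.56, -2.24 and -2.53 in LPR mice. Here too the groups overlapped, with a change of 0.10 (SE 0.13, adjusted p = 0.632 in limma).

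Cd8b1 encodes the β chain, which CD8 T cells carry and CD8α-bearing dendritic cells lack. Its probe A_66_P122499 (chr6:71286937-71286996) gave -3.85, -3.80 and -4.16 in MRL mice and -2.38, -1.84 and -1.80 in LPR mice. All LPR mice were above all MRL mice, and LPR 1 was the lowest of them. The rise was 1.93 (SE 0.19), or 3.81-fold (adjusted p = 0.00095 in limma), and was 1.14 with normexp. Within each mouse, Cd8b1 minus Cd8a was -2.58, -2.59 and -2.95 in MRL mice and -0.99, -0.67 and -0.76 in LPR mice. The groups did not overlap, so the α and β chains changed unequally at these probes, by 1.90 (SE 0.15).

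**Figure D2:**
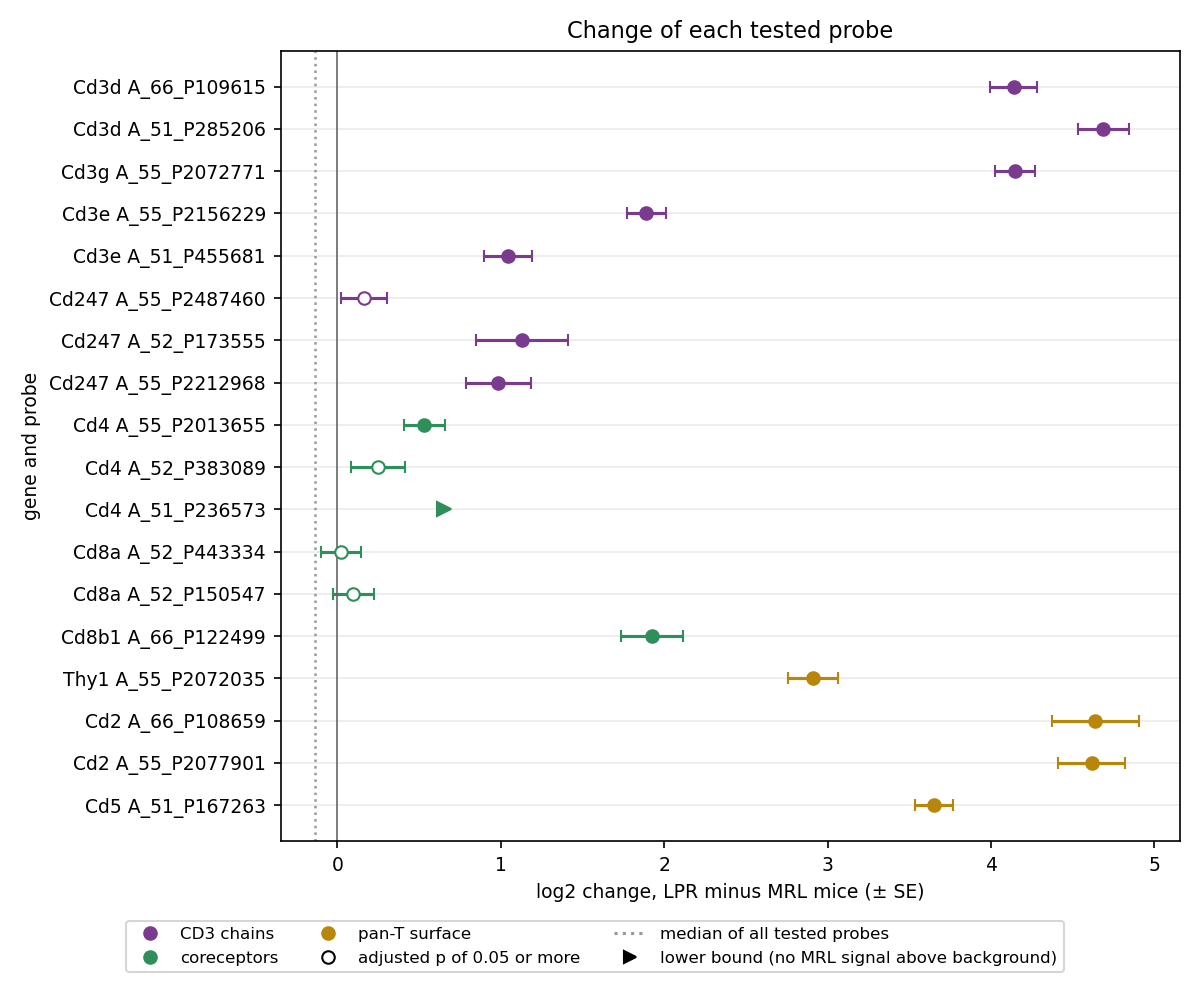
Log2 change, LPR minus MRL mice, with its standard error (x axis) for the 18 tested probes (y axis), coloured by role. Filled points passed the threshold, the triangle is a lower bound, and the dotted line is the median of all tested probes at -0.14. Cd3d, Cd3g, Cd2 and Cd5 lie at 3.65 and above, whereas the largest change among the coreceptors, the bound aside, is 1.93.

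The CD3 chains were next set against the coreceptors within each mouse, by taking the log2 value of the CD3 gene minus that of the coreceptor gene. A shift of a whole array cancels in this difference. With 4 CD3 genes and 3 coreceptor genes there were 12 pairs, and the CD3 gene rose more in 9 of them. In 8 of these 9 the LPR mice all lay above the MRL mice. The 12 pairs reuse the same genes and are not independent. The share of such pairs among other genes of the array was not computed, so the count only describes these genes. An exact permutation test of 3 against 3 mice cannot give a two-sided p below 0.1, so no pair could pass. The 10 pairs with complete separation in either direction reached that value, which was 0.12 after adjustment over the 12 pairs.

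Cd3d minus Cd8a was -1.40, -1.22 and -1.57 in MRL mice and 2.73, 2.86 and 2.56 in LPR mice. The difference shifted by 4.11 (SE 0.14), a 17.3-fold greater rise of Cd3d. Cd3g minus Cd8a shifted by 4.12 (SE 0.14), and Cd3d minus Cd4 and Cd3g minus Cd4 both shifted by 3.61, with SE of 0.11 and 0.10. In these 4 pairs the groups did not come near each other.

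The Cd3e pairs were smaller. Cd3e minus Cd4 was -0.86, -0.57 and -0.62 in MRL mice and 0.69, 0.68 and 0.65 in LPR mice, a shift of 1.36 (SE 0.09). With the mean of each gene's probes this shift was 0.49 (SE 0.08). Against Cd8a, Cd3e shifted by 1.87 (SE 0.10), again without overlap. Against Cd8b1 the shift was -0.04 (SE 0.15), and the groups overlapped (exact p = 0.8). This last value changed sign under several alternatives, and was 0.66 with normexp and -0.46 with the mean of each gene's probes. Cd3d and Cd3g rose more than Cd8b1 too, by 2.21 (SE 0.13) and 2.22 (SE 0.20).

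Cd247 went the other way at its brightest probe. Cd247 minus Cd4 was 0.70, 0.78 and 0.78 in MRL mice and 0.27, 0.43 and 0.47 in LPR mice, so Cd4 rose more, by 0.37 (SE 0.07) on the log2 scale, in every LPR mouse. Against Cd8b1 the shift was -1.76 (SE 0.08), also without overlap. Against Cd8a it was 0.14 (SE 0.09), where the groups overlapped (exact p = 0.2). With the mean of each gene's probes these 3 shifts were -0.22 against Cd4 (exact p = 0.3), -1.17 against Cd8b1 and 0.70 against Cd8a.

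With every tested probe in place of the brightest, the CD3 probe rose more in 36 of 48 probe pairs, 31 of them without overlap, and the shifts ran from -1.98 to 4.66. Many of these pairs share a probe and are not independent, and the share among other probe pairs of the array was not computed. At the brightest probes, the excess of the CD3 chains over Cd4 and Cd8a was given by Cd3d, Cd3g and Cd3e. The dim Cd247 probes A_52_P173555 and A_55_P2212968, at 1.13 and 0.99, also rose more than the Cd8a probes, at 0.02 and 0.10. The dim Cd4 probe A_51_P236573 had a fitted change of 2.15, above both Cd3e probes, with MRL signals at background. Whether the transcripts came from cells without coreceptors was not tested.

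**Figure D3:**
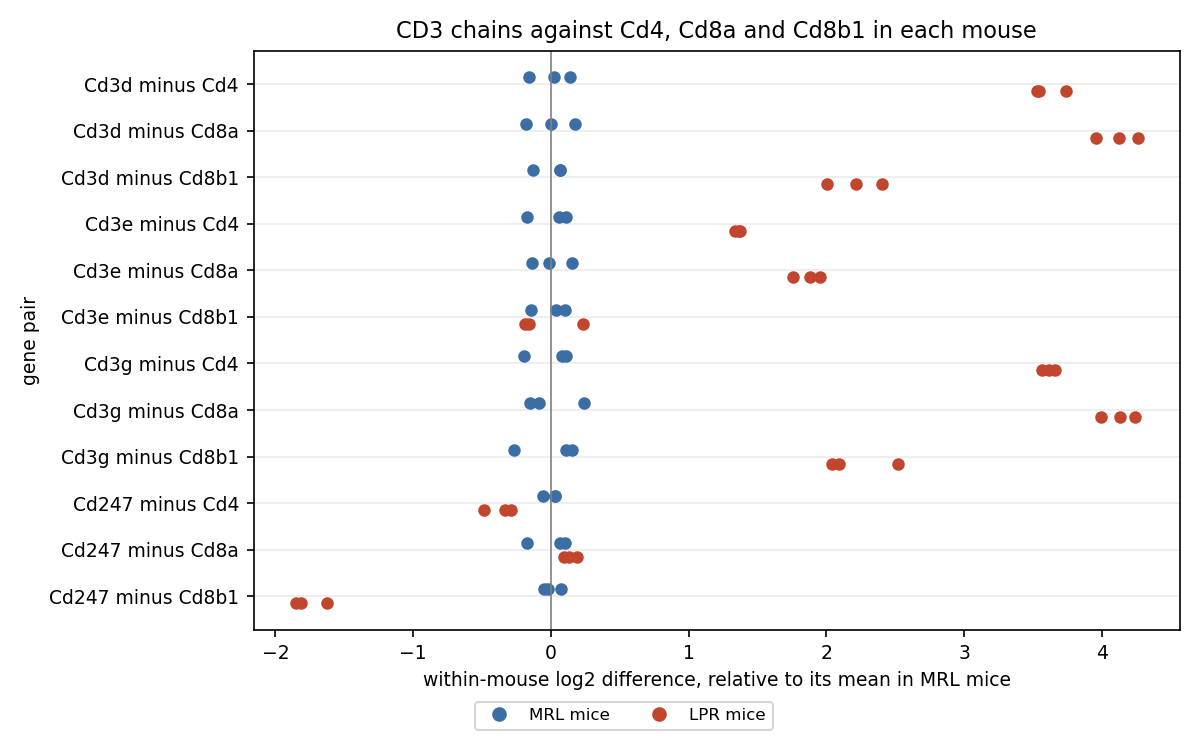
Within-mouse log2 difference between a CD3 gene and a coreceptor gene, relative to its mean in MRL mice (x axis), for the 12 gene pairs (y axis), with 1 point per mouse. The mean shift of LPR mice is 1.36 to 4.12 for the 8 pairs of Cd3d, Cd3g and Cd3e that separate the groups. LPR mice lie on both sides of 0 for Cd3e minus Cd8b1, and below 0 for Cd247 against Cd4 and Cd8b1.

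Thy1, Cd2 and Cd5, which T cells carry whether or not they have a coreceptor, all rose. Cd2 encodes an adhesion molecule that binds CD48. At A_66_P108659 (chr3:101079822-101079881) it gave -3.92, -2.89 and -3.65 in MRL mice and 0.94, 1.33 and 1.19 in LPR mice. MRL 2 was the highest MRL mouse and still lay far below every LPR mouse. The rise was 4.64 (SE 0.27), or 24.9-fold (adjusted p = 8.4e-05 in limma), and was 3.80 on the log2 scale with normexp. The second Cd2 probe, A_55_P2077901, shares 51 of its 60 bases with the first and rose 24.5-fold, so it is not a separate check.

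Cd5 encodes an inhibitory receptor of T cells and of a subset of B cells. Its probe A_51_P167263 (chr19:10792701-10792760) gave -3.71, -3.39 and -3.52 in MRL mice and 0.11, 0.06 and 0.16 in LPR mice. The LPR mice were almost equal and stood far above the MRL mice. The rise was 3.65 (SE 0.12), or 12.6-fold (adjusted p = 1.2e-05 in limma), and was 2.65 on the log2 scale with normexp.

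Thy1 encodes a glycoprotein on mouse T cells that neurons and some fibroblasts also carry. Its probe A_55_P2072035 (chr9:43856591-43856650) gave -0.63, -0.24 and -0.70 in MRL mice and 2.25, 2.46 and 2.46 in LPR mice. The groups were widely separated, and the rise was 2.91 (SE 0.15), or 7.52-fold (adjusted p = 5.7e-05 in limma). Of the other cell types with Thy1, markers of peripheral nerve and Schwann cells were higher in 0 of 7 genes tested by limma, and at an unadjusted p under 0.05 again 0 were higher and 4 were lower. The neurofilament gene Nefm fell by 1.21 (SE 0.10) and passed after adjustment. The summed log2 level of that list was 3.14 to 3.68 in MRL mice and 2.89 to 3.34 in LPR mice, and its brightest gene made up most of it. Of 6 genes of fibroblasts and pericytes, 3 were higher, with Lum, a collagen-binding proteoglycan, rising by 1.23 (SE 0.14) and Rgs5 changing by -0.07. Their summed level was 4.05 to 4.14 in MRL mice and 4.67 to 4.84 in LPR mice. The part of nerve cells and of fibroblasts in the rise of Thy1 was not tested.

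Genes that act just below the receptor were counted next. Of 17 tested genes of proximal T cell receptor signalling, 13 were higher and 0 were lower, with a median log2 change of 3.09, against 7.12% of all genes higher and a median of -0.12. Of the 13, 2 passed the filter on dim probes through LPR mice alone, and 11 were higher among probes above background on all 6 arrays. Lck, the kinase that CD4 and CD8 carry to the receptor, rose by 3.53 (SE 0.12), or 11.5-fold. Sh2d1a, an adaptor of the SLAM receptors, had no MRL signal well above background, and the LPR mice exceeded it by at least 10.4-fold. The smallest changes at the brightest probes were those of Plcg1, a phospholipase that many cells use, and Prkcq. They were 0.01 (SE 0.11) and 0.26 (SE 0.14), and neither passed. At other probes of Prkcq, A_66_P112113 changed by 0.78 without passing (adjusted p = 0.0677 in limma). A_52_P259508 was higher by at least 1.35-fold, with no MRL signal above background. Trat1 was too dim to be tested.

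Inhibitors of this pathway were also measured. Of 11 tested, 8 were higher and 0 were lower, with a median of 0.82. Sla, an adaptor that lowers the amount of receptor on the surface, rose by 2.60 (SE 0.28), whereas the ubiquitin ligase Cblb changed by -0.06 (SE 0.13) and did not pass. Leaving out MRL 1, MRL 2 or MRL 3 left 5 of these genes higher.

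Of 11 transcription factors of the T cell lineage, 6 were higher and 0 were lower, with a median of 1.31. Ikzf1, an early lymphoid factor, rose by 3.05 (SE 0.18), and Tcf7, which T cells need to develop and persist, rose by 2.96 (SE 0.19). Gata3, a factor that the kidney's collecting duct also uses, changed by -0.25 (SE 0.11), and Satb1 by 0.11 (SE 0.14), and neither passed. Other pan-T surface genes were higher in 6 of 9, with a median of 2.49. The cytokine receptor Il7r rose by 3.86 (SE 0.34), and S1pr1, which endothelium also carries, changed by -0.14 (SE 0.11).

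The ligands of the coreceptors and of Cd2 were all higher in LPR mice, 7 of 7, with a median of 3.19. H2-Ab1, a chain of the class II molecule that CD4 binds, rose by 3.54 (SE 0.10), or 11.7-fold. H2-D1, a class I molecule that CD8 binds, rose by 3.35 (SE 0.13). The least changed were B2m, the light chain of class I, at 1.87 (SE 0.12), and H2-K1 at 2.87 (SE 0.12). Class I and class II genes have near-identical copies, and the signal of one gene at the probe of another cannot be told apart on an array.

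Genes linked to lpr double-negative T cells were higher in 7 of 8 tested, with a median of 3.21, 1 of them through LPR mice alone. Which cells carried these transcripts was not tested. Lag3, an inhibitory receptor that binds class II and whose gene is the neighbour of Cd4, rose by 3.94 (SE 0.20), or 15.4-fold, and was above background in 2 of 3 MRL mice. Pdcd1, the inhibitory receptor PD-1, rose by 3.85 (SE 0.24), or 14.4-fold. Ikzf2, which encodes the factor Helios, rose by 0.73 (SE 0.12) at its brightest probe. Its probe A_55_P2502037, above background on all 6 arrays, changed by 0.14 and did not pass (adjusted p = 0.744 in limma). The dimmer A_52_P268911 rose by 1.11. Ptprc encodes CD45 of all white blood cells, whose B220 isoform double-negative T cells carry. At its brightest probe it changed by 0.39 (SE 0.15) and did not pass (adjusted p = 0.137 in limma), while its other 5 probes were all higher. Among those 5, A_55_P2716286 and A_55_P2716271 had no MRL signal well above background. They entered the test through LPR mice alone and support nothing by their calls. With the test limited to probes above background on all 6 arrays, 3 genes of this list were higher, because fewer could be tested.

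**Figure D4:**
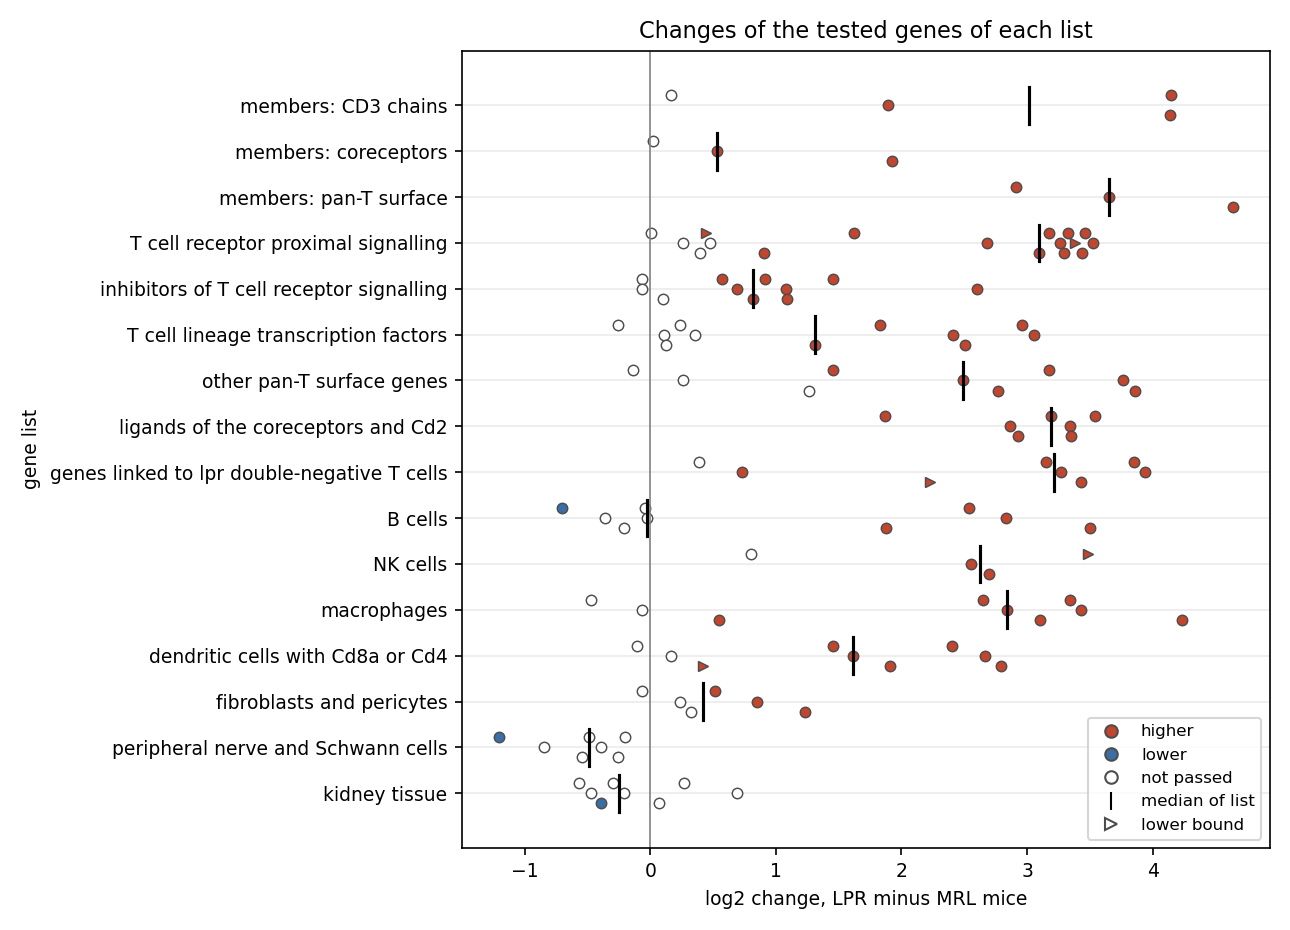
Log2 change, LPR minus MRL mice (x axis), of the tested genes of each list (y axis), with 1 symbol per gene, triangles for lower bounds and a black line for the median of the list. Medians were 3.01 to 3.21 for the CD3 chains, proximal signalling, the ligands and the genes linked to double-negative T cells. They were 0.53 for the coreceptors, -0.03 for the B cell list, -0.49 for the nerve list and -0.25 for the kidney list. Each gene is shown at its brightest tested probe. In the B cell list, 6 of 9 genes had at least 1 higher probe, against 0 in the nerve and kidney lists.

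Other cells in the kidney can carry the members, and their markers moved too. Dendritic cells can carry Cd8a or Cd4, and 7 of 9 of their marker genes were higher, 1 of them, Xcr1, through LPR mice alone. The median was 1.88, or 1.62 with Xcr1 at its lower bound. Clec10a, a lectin, rose by 2.79 (SE 0.14), and Siglech changed by -0.10 (SE 0.12). Their summed log2 level was 6.57 to 6.83 in MRL mice and 6.65 to 6.77 in LPR mice, and Siglech made up most of it. Macrophages, some of which have Cd4, were higher in 7 of 9 genes, and their summed level went from 4.03 to 4.27 in MRL mice to 5.34 to 5.49 in LPR mice. The Fc receptor Fcgr1 rose by 4.23 (SE 0.20), and Mertk changed by -0.47 (SE 0.19).

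Natural killer cells carry Cd247, Cd2 and, in part, Thy1. Of their 7 markers 3 were too dim to be tested, and Klre1 was above background in no mouse. Of the 4 tested, 3 were higher, 1 of them, Klra8, through LPR mice alone. The summed level of the 4 was -3.44 to -3.05 in MRL mice and -0.67 to -0.34 in LPR mice. It includes Klra8, whose MRL signals lay at background. Klra8 was at least 11.2-fold higher, and Ncr1 changed by 0.81 (SE 0.27) without passing. B cells can carry Cd5. Of their 9 tested genes, 4 were higher at the brightest probe and 6 had at least 1 higher probe. Ms4a1, the gene of CD20, was lower at its brightest probe. There it changed by -0.70 (SE 0.18, adjusted p = 0.0497 in limma), where 5.47% of all genes were lower. Its other tested probe, A_55_P2802151, rose by 4.99 (SE 0.62, adjusted p = 0.0028 in limma) and was above background in 2 of 3 MRL mice. The direction of Ms4a1 thus depended on the probe. The summed B cell level was 0.90 to 1.04 in MRL mice and 2.26 to 2.61 in LPR mice. The part of these cells in the changes of the members was not tested.

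Of 8 genes of kidney cells, 0 were higher and Lrp2, the endocytic receptor of the proximal tubule, fell by 0.39 (SE 0.10, adjusted p = 0.0492 in limma). Nphs1 of the podocyte changed most upward, by 0.69 (SE 0.21), without passing. At an unadjusted p under 0.05 in limma, 1 of the 8, Nphs1, was higher and 3 were lower. The summed level of the list was 9.25 to 9.32 in MRL mice and 8.96 to 9.05 in LPR mice.

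Among 23316 genes above background on all 6 arrays, those whose values followed a member most closely were sought by the root mean square difference over the 6 mice, each gene taken relative to its MRL mean. For Cd3e, the 5 closest included H2-Ob, a subunit of a class II chaperone, at 0.07, Adam19 and Serpina3f at 0.09, and Bst2 at 0.10. For Cd4 they included Bfsp1 at 0.07 and F8 at 0.08, and for Cd8a they included Caskin1 and Hsp90b1, both at 0.04. The others are transcripts without a gene symbol. Such closeness in 6 values says how alike the numbers were and no more.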

How the data were processed

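TA was performed on kidneys of 3 MRL and 3 LPR mice. The authors deposited, for each spot, the intensity from Agilent Feature Extraction 12.0.3.1 (per the labels), with background subtracted and without normalization between arrays. They also deposited the same values as a ratio to a 75th percentile per array, used here as an alternative. The log2 intensity minus the 75th percentile of its array was used. Spots marked as outliers were left out (73 to 90 per array), and spots of a probe were averaged. Probes well above background on at least 3 of 6 arrays (39924 in all) were compared between groups with limma 3.58.1 (R 4.3.3), and p-values were adjusted by Benjamini-Hochberg with a threshold of 0.05. The brightest tested probe stands for a gene. No spot was saturated, and the number of arrays limits the precision.

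Genes were found by the array's gene names. All 16 of the members' probes with a RefSeq accession matched the current list of names (GRCm38.p6) under the same symbol. Exon and UTR annotation of mm9 was not used here.

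The named genes are the members with every probe, Fas, and the list genes with the largest and smallest changes (2 each for proximal signalling, lineage factors, ligands and genes linked to double-negative T cells, otherwise 1), any list gene that fell, and the 5 genes closest to Cd3e, Cd4 and Cd8a. Xcr1 and Klre1 were named for their dimness, Umod as an example of kidney signal, and Trat1 as the untested gene of its list, after their values were seen. A gene that this rule would name is not reported here. The members and lists were chosen with earlier results of these data known. Summed levels are log2 of the summed linear values of a list's tested genes in a mouse. Alternatives covered the normalization, the background correction (normexp, offset 50), the filters, the slide position, the replicate number, the methods' test of the study and leaving out each mouse. Only the limma fit and its calls were tested on simulated data. Figures were drawn with matplotlib 3.10.9.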

Additional observations from a re-analysis of the deposited data

How the results depend on the processing

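The 22 alternatives left 6 to 9 of the 10 member genes higher, and the 21 that keep single probes left 10 to 14 member probes higher. Cd3d, Cd3g, Cd3e, Thy1, Cd2 and Cd5 kept their call under all 22. Cd4 lost its call under 12 of the 22 and Cd8b1 under 1 (the methods' test on linear values), whereas Cd247 gained one with the mean of its probes. In 16 alternatives run for the pairs, the CD3 gene rose more without overlap of the groups in 8 to 10 of the 12.

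With the slide row as a block, the log2 change of Cd247 was -0.070, that of Cd8a was -0.17 and that of its coding probe A_52_P150547 was -0.021. Row 2 of the slide held LPR 2 and LPR 3 only, and LPR 1 lay in row 1 with all MRL mice. The change with this block is therefore that of LPR 1 alone against the MRL mice. With 1 mouse left out, A_52_P150547 ranged from -0.0033 (without LPR 2) to 0.157, and Cd8a at A_52_P443334 from -0.057 (without LPR 3) to 0.12. None of these 3 results passed with all mice. Cd3e minus Cd8b1 turned to 0.66 with normexp and ranged from -0.17 to 0.038 with 1 mouse left out, positive without MRL 3, LPR 2 or LPR 3. The cause was not tested.

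Of the inhibitors of T cell receptor signalling, 5 genes were higher with the slide column, the slide row or the replicate number as a block, 4 by the methods' test on log2 values, 3 by that test on linear values, and 5 to 8 when 1 mouse was left out. Of the genes linked to double-negative T cells, 3 were higher among probes above background on all 6 arrays.

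The replicate numbers did not pair the mice. Same-numbered mice correlated in their deviations from the group means at 0.12, 0.02 and 0.01, and not every mouse correlated best with its own number. With the replicate block, 7 member genes and 12 member probes were higher. Dim probes limit Cd247 and Cd4, where MRL signals lay at background.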
